A study of Homo sapiens with 9 samples.

Results

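SOX11-knockout cells of the line Z138 were set against wild-type cells of the same line to ask which genes, families and pathways move with loss of SOX11. Libraries were taken by their labelled genotype, 3 knockout and 3 wild type, which is 6 of the 9 libraries of the series, and were paired by the batch number that the labels give. Z138 is an established B cell line derived from a patient's mantle cell lymphoma. The knockout carries the genotype label SOX11KO, the wild type carries no edit, and both genotypes were grown untreated in the same serum-containing medium. The other 3 libraries are knockout cells to which SOX11 was returned, called the rescue. They entered the estimate of the spread, the filter on low values and the principal components. Their levels are read only for genes near zero in the knockout. The labels do not say whether the knockout is a single clone, or whether libraries of a genotype came from separate cultures. The p-values measure only the spread between these libraries. From knockout and wild type alone, loss of SOX11 and a difference between clones cannot be told apart. RNA came from whole cultures and is labelled as poly(A) RNA, and in such bulk samples fewer cells of a kind and less RNA per cell cannot be told apart.

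SOX11 is a transcription factor of the SOXC group that binds DNA in the minor groove through its HMG box, at short cores such as ACAAAG and ACAATG. It acts in developing neurons, is silent in normal B cells and is switched on in most conventional mantle cell lymphomas. There it is known for holding back the step from B cell to plasma cell and for driving growth factors and migration genes.

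Levels below are normalized counts recovered from the deposited log2 values, and folds are ratios of their means. Differences are knockout minus wild type on the deposited log2 scale, on which changes of low genes are understated. Adjusted p-values are from limma with the replicate number as a block, and a gene was called at an adjusted p under 0.05. Depth was estimated at 30800000 to 40700000 reads a library. Libraries that share a genotype had correlations of 0.995 to 0.998. The leading principal component (48.2% of variance) had the 3 knockout libraries at 13.3 to 14.2, the 3 rescue libraries at -10.68 to -8.12 and the 3 wild-type libraries at -4.87 to -3.28. B cell markers summed to 1263 to 1406 CPM in the knockout and 1282 to 1508 CPM in wild type, with 2 of 8 called higher and 3 lower. T cell markers summed to 61.5 to 66.7 CPM in the knockout and 35.8 to 41.8 CPM in wild type, with CD4 the largest part and TRBC1 under 3 normalized counts in every library. Of 5 tested T cell markers, CD4, CD3E (17 of 20 alternative fits) and CD3G (8 of 21) were called higher and TRAC lower (14 of 20). NK cell markers summed to 10.2 to 13.3 CPM in the knockout and 3.50 to 4.29 CPM in wild type, and of 3 tested, PRF1 and NKG7 (19 of 20) were called higher. Myeloid markers summed to 1.241 to 1.36 CPM in the knockout and 0.437 to 0.649 CPM in wild type, with 0 tested and CD14 and CSF1R under 3 normalized counts in every library. The part of other cells in any result was not tested.

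SOX11 itself was read first, as a check of the labels. It had normalized counts of 901, 1335 and 862 in the knockout libraries of batches 1 to 3 and 3800.4, 3845 and 3003 in the wild-type libraries. The genotypes did not overlap. The knockout kept 29.1% of the wild-type level on average, and 23.7%, 34.7% and 28.7% within batches 1, 2 and 3. The difference was -1.32 (SE 0.0686, adjusted p = 8.39e-07), and the exact two-sided permutation test gave p = 0.1, the smallest that 3 libraries against 3 allow. Counts over the whole transcript do not show whether the transcript that remains is edited.

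The windows around the start of genes that fell most show what the core hexamers look like there. Printed first are 5 protein-coding genes with large falls whose RefSeq promoter window holds ACAAAG or ACAATG on either strand, with the match in capitals. Windows (build GRCh38.p14) run from 250 bases before to 50 after the start. These 5 had the largest falls with a match among the genes considered, and not every gene was considered. CD24, the largest fall on the deposited scale, follows as a window without a match. The genes were chosen by this rule after their values were seen.
FMNL2 (chr2:152334924-152335223, plus strand): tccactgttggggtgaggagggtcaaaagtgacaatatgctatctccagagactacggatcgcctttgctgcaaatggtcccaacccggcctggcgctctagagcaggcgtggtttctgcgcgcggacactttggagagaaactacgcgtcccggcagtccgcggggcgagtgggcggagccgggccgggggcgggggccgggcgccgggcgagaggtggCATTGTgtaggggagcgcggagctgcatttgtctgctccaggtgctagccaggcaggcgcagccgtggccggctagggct
MLLT11 (chr1:151060147-151060446, plus strand): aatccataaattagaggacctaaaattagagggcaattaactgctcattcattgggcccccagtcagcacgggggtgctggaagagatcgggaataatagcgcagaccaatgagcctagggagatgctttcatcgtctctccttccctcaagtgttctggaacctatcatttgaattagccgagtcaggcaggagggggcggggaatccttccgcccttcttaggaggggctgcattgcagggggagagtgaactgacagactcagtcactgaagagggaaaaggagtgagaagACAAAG
ASAP2 (chr2:9206562-9206861, plus strand): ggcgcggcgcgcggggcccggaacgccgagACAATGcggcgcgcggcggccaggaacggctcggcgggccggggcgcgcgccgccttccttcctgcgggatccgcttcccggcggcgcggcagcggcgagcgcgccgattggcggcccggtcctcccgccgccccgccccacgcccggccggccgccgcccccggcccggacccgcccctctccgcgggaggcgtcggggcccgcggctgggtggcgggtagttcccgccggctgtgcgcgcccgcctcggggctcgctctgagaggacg
TUBA1A (chr12:49189031-49189330, minus strand): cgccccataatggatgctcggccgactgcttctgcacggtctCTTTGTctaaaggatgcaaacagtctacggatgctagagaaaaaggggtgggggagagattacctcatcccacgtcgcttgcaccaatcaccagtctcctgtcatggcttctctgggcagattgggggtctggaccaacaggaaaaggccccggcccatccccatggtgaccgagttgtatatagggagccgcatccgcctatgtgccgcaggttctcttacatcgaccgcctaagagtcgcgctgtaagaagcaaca
GRIK3 (chr1:37034466-37034765, minus strand): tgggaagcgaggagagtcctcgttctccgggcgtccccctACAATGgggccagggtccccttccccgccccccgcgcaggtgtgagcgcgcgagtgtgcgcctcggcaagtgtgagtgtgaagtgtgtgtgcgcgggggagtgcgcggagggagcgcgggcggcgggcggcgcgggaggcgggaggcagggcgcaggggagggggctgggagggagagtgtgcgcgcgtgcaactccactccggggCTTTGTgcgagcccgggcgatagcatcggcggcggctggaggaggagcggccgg
CD24 (chr6:106975578-106975877, minus strand): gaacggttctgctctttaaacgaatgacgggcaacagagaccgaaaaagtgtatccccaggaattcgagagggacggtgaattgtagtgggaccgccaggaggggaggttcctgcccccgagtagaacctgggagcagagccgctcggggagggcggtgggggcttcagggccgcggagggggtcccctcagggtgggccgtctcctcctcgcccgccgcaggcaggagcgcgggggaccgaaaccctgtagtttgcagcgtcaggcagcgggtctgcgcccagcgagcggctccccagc

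FMNL2 encodes a formin that extends actin filaments, MLLT11 a small protein of developing neurons, ASAP2 an ARF GTPase-activating protein of focal adhesions, TUBA1A the alpha-tubulin of young neurons and GRIK3 a kainate-type glutamate receptor chain. FMNL2 had 74.3, 38 and 72.6 normalized counts in the knockout, against 1015, 581 and 817 in wild type. MLLT11 had 345, 327 and 415 in the knockout, against 1877, 1382 and 1985 in wild type. ASAP2 had 11.7, 0 and 15.7 in the knockout, against 478, 276 and 426 in wild type. In each of these 3 genes every knockout library lay far under every wild-type library. GRIK3 had 0, 13.6 and 11.7 normalized counts in the knockout, against 318, 346 and 286 in wild type (adjusted p = 1.16e-06). CD24, a surface glycoprotein of B cell precursors, had 7.05, 5.19 and 4.29 in the knockout, against 1910, 1642 and 1671 in wild type, a 316-fold fall (difference -2.49, SE 0.0626, adjusted p = 6.77e-09). Near-identical copies of CD24 in the genome make its level less certain.

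A promoter window was at hand for 9116 of the tested genes. ACAAAG or ACAATG stood on either strand in 23.8% of the 1044 windows of genes called lower, in 12.6% of the 920 windows of genes called higher and in 15.6% of all 9116. ACAAAG stood in 16.4%, 7.5% and 10.3% of these 3 sets of windows, and ACAATG in 8.43%, 6.09% and 6.03%. Among the 280 windows of genes called lower by at least 2-fold the share with either hexamer was 21.8%, and among the 79 of genes called higher by at least 2-fold it was 17.7%. The same hexamers with their letters reversed (GAAACA and GTAACA), a comparison added after the data were seen, stood in 14.2%, 17.8% and 14.6%, and in 14.3% of the 280 and 22.8% of the 79. The median GC content was 68.3% in windows of genes called lower, 65.0% in those called higher and 65.3% in all. These shares describe letters in the windows and not binding, and no test was made of them.

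**Figure D1:**
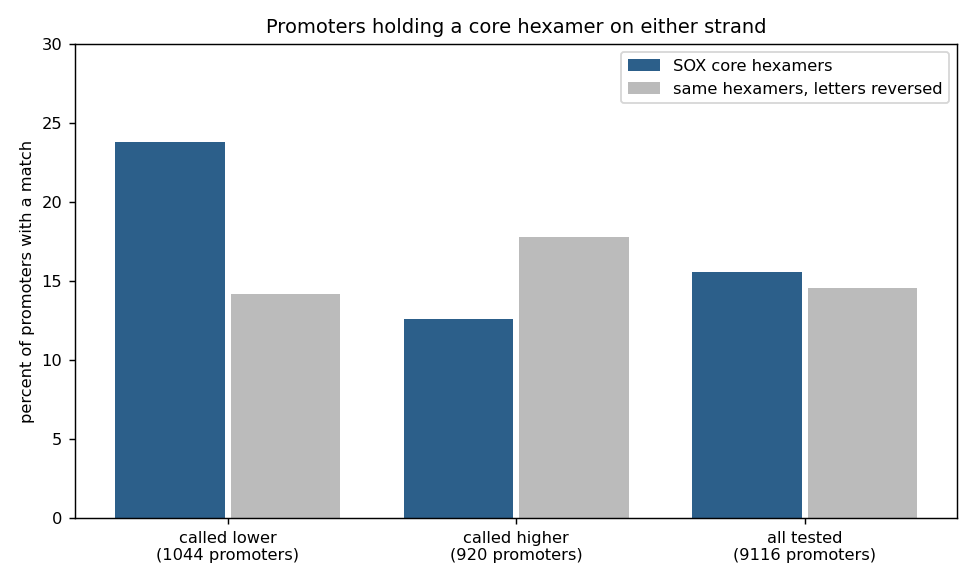
Percent of RefSeq promoter windows that hold ACAAAG or ACAATG on either strand (blue), and the same hexamers with reversed letters (grey), for genes called lower in the knockout, genes called higher and all tested genes. The blue bar stands at 23.8% for genes called lower, against 15.6% over all tested genes, and the grey bars lie between 14.2% and 17.8%.

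Of 11542 genes tested, 2481 were called, which is 21.5%. In the knockout 1172 were higher (10.2%) and 1309 were lower (11.34%). Of the 2481, 2473 moved the same way in each of the 3 batches, but the calls were made on these same batches and favour such genes. Genotypes did not overlap for 29.5% of the tested genes. The falls were larger than the rises: 368 genes fell and 118 rose by at least 2-fold, 128 fell and 21 rose by at least 4-fold, and 49 fell and 4 rose by at least 10-fold. The median fold was 1.46 among genes called lower and 1.26 among genes called higher. Calls also leaned by level, since 14.4% of the 2886 genes with the lowest CPM were lower and 6.55% higher, while of the 2886 with the highest CPM 9.94% were lower and 14% higher. Without the replicate block 619 genes were higher and 851 lower. Leaving out wild-type replicate 1 gave a total of 1568, knockout replicate 1 gave 1583, knockout replicate 2 gave 1621, batch 1 gave 1183 and batch 3 gave 1650. In every alternative that tested them, 886 genes kept their call, 333 higher and 553 lower. Genes named below kept theirs in every alternative that tested them, unless a count of alternatives is given, and there were 21 alternatives. For the lists that follow, counts are given again where leaving out the block or a library moves 5 or more calls by over 1.5 times, and smaller counts often fell to 0 or 1. Each list is to be read beside the 10.2% higher and 11.34% lower of all tested genes. Calls over all tested genes also fell in the fits without the block or a library, so a smaller count alone is not particular to a list.

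HIPK2, a nuclear kinase of stress and p53 signalling, had the largest fall on the deposited scale after CD24 and BEX3. It had 473, 389.5 and 419 normalized counts in the knockout, against 3410.1, 3889 and 2915 in wild type, a 7.97-fold fall. INSM1, a zinc finger factor of neuroendocrine cells, fell 3.25-fold to 668 ± 52.4 in the knockout, against 2168 ± 336 in wild type (SD, n = 3 each). PTPN12, a phosphatase that acts on adhesion proteins, fell 3.92-fold, and SPINT2, a serine protease inhibitor, fell 5.23-fold. DENND11, a vesicle-traffic protein, had a 3.41-fold lower mean but wide spread, with 1051, 772 and 251 in the knockout and 1612, 2231 and 3235 in wild type. Its call held in 16 of 21 alternatives.

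The largest rise on the deposited scale was ELL2, an elongation factor that plasma cells use to process immunoglobulin transcripts. ELL2 had 1873, 1579.8 and 1828 normalized counts in the knockout, against 187, 148 and 286 in wild type, an 8.51-fold rise (difference 1.65, SE 0.0752, adjusted p = 4.58e-07). AHNAK, a giant scaffold at the cell membrane, rose 3.17-fold, and ACY3, an aminoacylase, rose 5.20-fold. CD4, a coreceptor of helper T cells, had 818, 888 and 831 in the knockout and 186, 179 and 174 in wild type. RTN4RL1, a receptor of the Nogo receptor family, rose 16.2-fold to 211 ± 16.9 in the knockout, against 13.1 ± 6.0 in wild type. BTBD11 rose 17.3-fold to 149.6 ± 18.5, against 8.66 ± 4.94 in wild type. STS, a steroid sulfatase, rose 2.08-fold to 4192 ± 266 in the knockout, against 2018 ± 312 in wild type, and CORO2B, an actin-binding coronin, rose 2.65-fold.

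**Figure D2:**
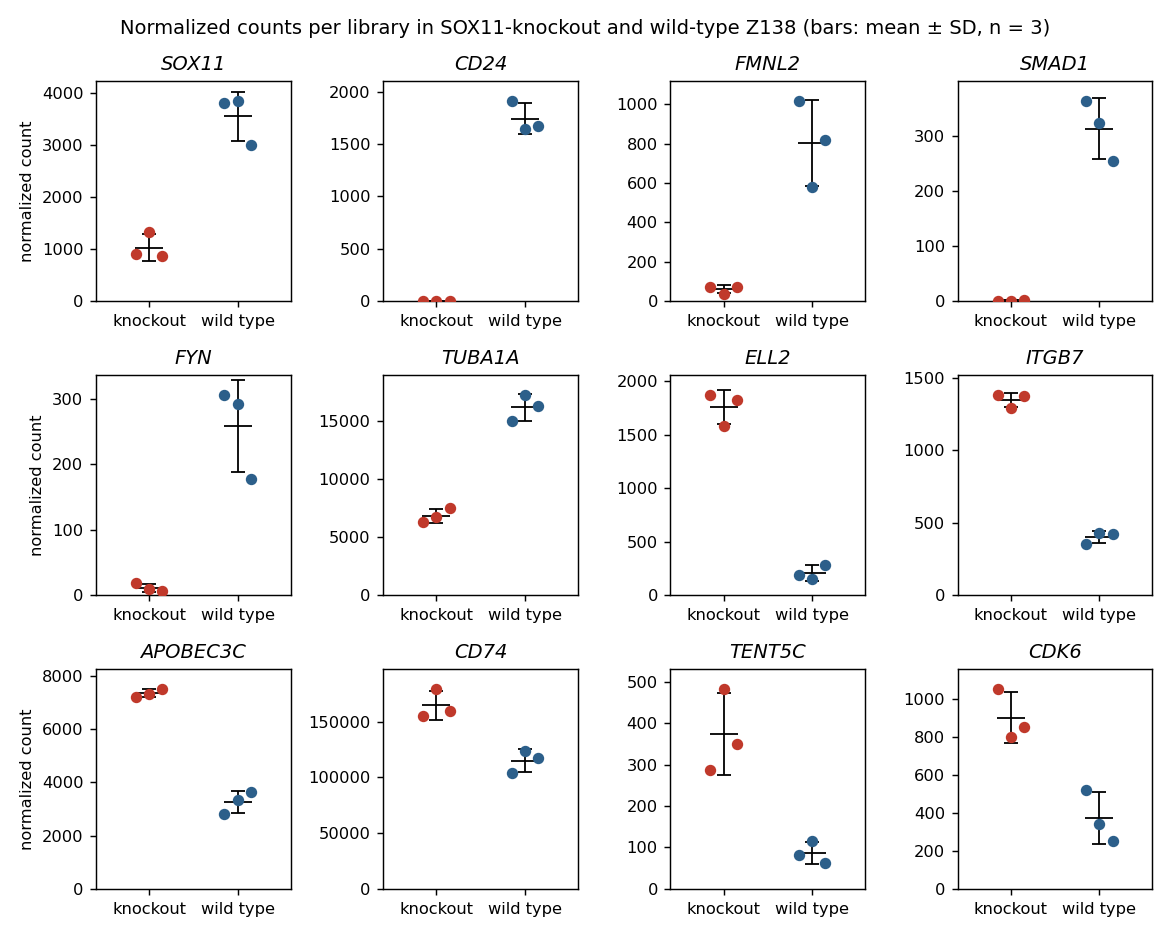
Normalized counts of 12 genes in each knockout library (red, left) and each wild-type library (blue, right), with the mean and SD of 3 libraries in black and an axis from 0 in every panel. In each of the 12 panels the 3 knockout points lie all on the same side of the 3 wild-type points, as for ELL2, with 1579.8 or more in the knockout and 286 or less in wild type.

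A group of genes went near zero in the knockout. At normalized counts of at most 5 in every knockout library and at least 50 in every wild-type library there were 9 genes, and 0 the other way round. With limits of 10 and 30 there were 27, against 1 the other way, MAP7D2, a microtubule-binding protein with 67.9, 77.7 and 63.9 in the knockout and 7.17, 0 and 1.65 in wild type. The 9 were ARHGEF10L, CRMP1, KLHL14, MYO3A, PDE9A, SMAD1, SPATA13, SYT11 and TCEAL4. CRMP1, a semaphorin signalling protein of growing axons, was at 0 in the 3 knockout libraries and at 91.2, 90.0 and 110 in wild type. MYO3A, a myosin of sensory hair cells, was also at 0 in the knockout, against 90.2, 90.7 and 67.8 in wild type. PDE9A, a phosphodiesterase that breaks down cyclic GMP, was at 0 too, against 156, 118 and 132 in wild type. OXCT1, the enzyme with which cells burn ketone bodies, had 0, 1.35 and 8.85 in the knockout, against 263, 239.8 and 257 in wild type. Of the 27, 24 passed the filter on low values and were called lower, and 3 were not tested. Since the 27 were picked by their counts in these same libraries, those calls are no separate support. Of the 27 genes, 12 were at 30 or more in each rescue library and 7 stayed at 10 or less in each, among them CRMP1, MYO3A and OXCT1.

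Of those 27 genes 5 lie on chromosome X, as do 580 of the 16461 genes with a known position, and no test was made of this. Among the 5, 4 stand near each other on the long arm. TMSB15A, a beta-thymosin that binds actin monomers (chromosome X, 102513676 to 102516784, GRCh38), had 5.30, 4.21 and 2.26 in the knockout, against 223, 195 and 209 in wild type. BEX3, an adaptor of neurotrophin receptor signalling (103376340 to 103378077), had 3.89, 5.29 and 3.75 in the knockout, against 918, 1156 and 1126 in wild type, a 247-fold fall. TCEAL4 (103576231 to 103587736) and TCEAL1 (103628704 to 103630953), relatives of elongation factor TFIIS, averaged 2.56 ± 1.5 and 2.06 ± 2.11 in the knockout, against 77.5 ± 10.7 and 67.2 ± 15.6 in wild type. Their neighbours TCEAL8 (580 in the knockout, 545 in wild type), RAB40A (49.7 and 60.9) and MORF4L2 (7027 and 6554) were not called, while TMSB15B (1.44-fold, 15 of 21 alternatives) and RAB9B (3.09-fold, 15 of 20) were lower. Members of these families share sequence, so reads can be divided between them.

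Genes that shape the cytoskeleton moved in both directions. Of 45 tested actin-binding and bundling proteins 15 were lower and 8 higher, against the 11.34% and 10.2% of all genes. MARCKSL1, an actin-linked substrate of protein kinase C, fell 2.00-fold to 4363 ± 199 in the knockout, against 8729 ± 401 in wild type. DBN1, the drebrin of dendritic spines, had 4786, 4881 and 5049 in the knockout, against 11029, 11862 and 9364 in wild type. PFN2, the neuronal profilin, fell 4.84-fold, CRACD, an inhibitor of capping protein, 25.2-fold, SVIL, supervillin, 31.0-fold, and TPM4, a tropomyosin, 1.74-fold. FLNA, a filamin that crosslinks actin, went the other way, at 30134 ± 1279 in the knockout and 21348 ± 272 in wild type. SYNPO (1.85-fold), ABLIM1 (2.29-fold) and the calponin CNN2 (1.74-fold) were also higher. The count of higher members was 5 without the block or without knockout replicate 2. ACTB, beta-actin, differed by 0.04 (adjusted p = 0.629). Formins and other actin nucleators, which start and extend filaments, gave 6 higher and 5 lower of 32 tested, and 20 of the 32 had a difference above 0. The 6 were 2 without the block, replicate 1 of either genotype or knockout replicate 2, and the 5 were 3 without knockout replicate 2.

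Among 14 tested tubulins 4 were lower and 0 higher, with 0 higher also at an unadjusted p under 0.05. TUBA1A had 6296, 6705 and 7450 in the knockout, against 14947, 17210 and 16232 in wild type (2.37-fold, adjusted p = 3.15e-07), and TUBB2B, a beta-tubulin of young neurons, fell 1.45-fold. Tubulin genes share long stretches of sequence, which makes their division uncertain. Of 19 tested microtubule regulators and neuronal growth genes 10 were lower and 3 higher, with NRSN2 down 3.59-fold and STMN1, which takes microtubules apart, down 1.32-fold. Synaptic and vesicle genes gave 12 lower and 3 higher of 41. SYT11, a synaptotagmin, had 1.77, 2.11 and 3.41 in the knockout, against 127, 149 and 140 in wild type. HOMER2, a synaptic scaffold, fell 6.26-fold, while UNC13C and SHANK1 rose 1.52-fold and 1.33-fold. The summed CPM of neuronal markers was 4.08 to 6.03 in the knockout and 7.22 to 19.8 in wild type.

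Integrins, the receptors by which leukocytes hold on to endothelium and matrix, gave 7 higher and 0 lower of 9 tested, with a median difference of 0.27 where all tested genes had 0.0048. ITGB7, which pairs with ITGA4 for homing to the gut, had 1382, 1293 and 1372 in the knockout, against 351, 426 and 419 in wild type (3.38-fold, adjusted p = 1.16e-06). ITGB3 rose 3.16-fold and ITGAL, the alpha chain of LFA-1, 2.70-fold (called in 19 of 20 alternatives). ITGA4 was 1.20-fold higher, called in 17 of 21. The 7 were 4 without knockout replicate 3 or wild-type replicate 1, 5 without the block and 3 without batch 3. Other adhesion genes moved both ways. Of 24 tested focal adhesion genes, which link integrins to actin, 5 were higher and 5 lower, with VCL, vinculin, up 1.29-fold and TLN2, a talin, up 2.10-fold. Each of these counts was 3 without the block or without replicate 3 of either genotype, the higher also without replicate 1 and the lower without replicate 2 of either genotype. Of 11 tested cadherins, protocadherins and catenins 5 were lower and 2 higher, and the 5 were 3 without knockout replicate 2. CTNNA1, the catenin that ties cadherins to actin, was at 3146 ± 303 in the knockout and 5070.4 ± 248 in wild type. Of 10 tested chemokines and chemokine receptors 5 were lower and 1 higher. CCL3, a chemokine that draws monocytes and T cells, had 6.28, 17.9 and 15 in the knockout, against 253, 188 and 174 in wild type, and CCL4 had 0.940, 13.7 and 6.17 in the knockout, against 59.6, 237 and 85.4 in wild type. CCL3 shares sequence with CCL3L1, which was 4.28-fold lower. CXCR4, the receptor that holds B cells in bone marrow and lymph node, was at 19095 ± 1212 in the knockout and 23107 ± 699 in wild type.

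G proteins and the RGS proteins that shut them off gave 10 lower and 2 higher of 28. RGS12 fell 2.09-fold and RGS7 3.41-fold, and GNG4, a gamma chain, 1.61-fold. RGS2 had 149, 160 and 118 in the knockout, against 410, 1251 and 477 in wild type, so the wild-type library of batch 2 stood above the other 5. RGS1 overlapped between genotypes and was called in 11 of 21 alternatives. The 10 were 5 without knockout replicate 2 and 6 without the block. S1PR4, which senses sphingosine-1-phosphate on lymphocytes, rose 6.92-fold to 485 ± 107 in the knockout, against 70.0 ± 18 in wild type.

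No tested member of the TGF-beta and BMP pathway was called higher in the knockout and 15 of 31 were called lower. Of the 31, 26 had a difference below 0 and 5 above, with a median difference of -0.18. The median was -0.19, -0.17 and -0.17 within batches 1, 2 and 3. SMAD1, which carries the BMP signal to the nucleus, had 0.586, 1.40 and 3.02 in the knockout, against 363, 322 and 254 in wild type (difference -1.16, SE 0.0556, adjusted p = 6.07e-07). The receptor TGFBR1 fell 2.01-fold, and the inhibitory SMAD6 2.08-fold and SMAD7 1.44-fold (called in 19 of 21). SMAD4, the partner of all receptor SMADs, was 1.19-fold lower, called in 17 of 21. SMAD2 (2608 in the knockout, 2670.5 in wild type), SMAD3 (2026 and 2122), the ligand TGFB1 (2557 and 2471) and the receptor TGFBR2 (881 and 896) were not called. The 15 were 9 without knockout replicate 1, 7 without the block and 6 without batch 1.

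The Wnt pathway gave 14 lower (42.4%) and 6 higher (18.2%) of 33, against 11.34% and 10.2% of all tested genes. Among the lower were ligand WNT16, with 729, 814 and 764 in the knockout and 1835, 2109.5 and 1705 in wild type, and the receptors ROR1 (2.00-fold), FZD6 (5.44-fold) and LGR4 (8.10-fold). AXIN2, a feedback inhibitor that Wnt signals switch on, fell 2.26-fold to 131 ± 7.88 in the knockout, against 296 ± 47.7 in wild type. WNT5B rose 1.54-fold and WNT10B 1.40-fold, the second with overlapping libraries and 20 of 21 alternatives. The 14 were 9 without wild-type replicate 1, and the 6 were 3 without the block. Of 18 tested Hippo pathway genes 8 were lower (44.4%) and 1 higher (5.56%). The falls were led by the YAP-binding proteins AMOTL1 (2.32-fold) and AMOT (3.46-fold) and the factor TEAD4 (2.40-fold). The 8 were 4 without the block, 3 without wild-type replicate 1 or knockout replicate 3, 4 without knockout replicate 1, and 5 without wild-type replicate 3, rescue replicate 2 or rescue replicate 3.

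Of 32 Notch pathway genes 7 were higher (21.9%) and 6 lower (18.8%), so the pathway had no single direction. Over all tested genes these shares were 10.2% and 11.34%. DTX1, a Notch regulator of lymphocytes, had 3154, 2997 and 3437 in the knockout, against 8057, 6226 and 7936 in wild type. NOTCH2 was 1.29-fold higher and NOTCH1 1.28-fold lower, the second with overlapping libraries and 19 of 21 alternatives. Without the block 3 Notch genes were higher and 2 lower, and without wild-type replicate 2 the 7 were 2. They were 3 without knockout replicate 2 and 4 without any other single library of either genotype. Among 21 growth factors and receptor tyrosine kinases 8 were lower and 2 higher. MDK, the growth factor midkine, had 50.2, 59.4 and 47.3 in the knockout, against 930, 915 and 930 in wild type. PDGFA, a growth factor of vessel-supporting cells, fell 2.22-fold, the decoy receptor FGFRL1 2.60-fold and IGFBP4 1.58-fold, and TIE1, an endothelial receptor, rose 1.68-fold.

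Immediate early genes, which cells switch on within minutes of a signal, and heat shock genes gave 21 lower (47.7%) and 6 higher (13.6%) of 44. NR4A1, an orphan nuclear receptor induced by antigen receptor signals, had 277, 461 and 352 in the knockout, against 1054, 1540 and 861 in wild type. EGR2 fell 2.97-fold, BTG2, which slows division, 1.94-fold, and ZFP36L1, which destabilizes transcripts, 2.11-fold. EGR1 depended on the batch: it had 871, 239.8 and 1212 in the knockout and 8076, 184 and 6474 in wild type, so that the wild-type library of batch 2 was under all 3 knockout libraries and the direction in that batch was the opposite. It was called in 13 of 21 alternatives. FOS was low in the same batch, with 174, 25.7 and 135 in the knockout and 809, 92.4 and 728 in wild type, and was called in 20 of 21. The dual-specificity phosphatases, which shut off MAP kinases, gave 6 lower and 0 higher of 14, among them DUSP5 (5.91-fold) and DUSP2 (2.30-fold). The 6 higher members were the chaperones HSPB1 (1.19-fold), HSPD1 (16 of 21 alternatives) and HSPE1 (13 of 21), the cochaperone BAG3 (1.48-fold) and the factors KLF10 (14 of 21) and KLF2 (13 of 21). The 21 were 12 without the block or without wild-type replicate 3, and 13 without knockout replicate 3, and the 6 were 3 without the block or without wild-type replicate 3 and 2 without knockout replicate 2.

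**Figure D3:**
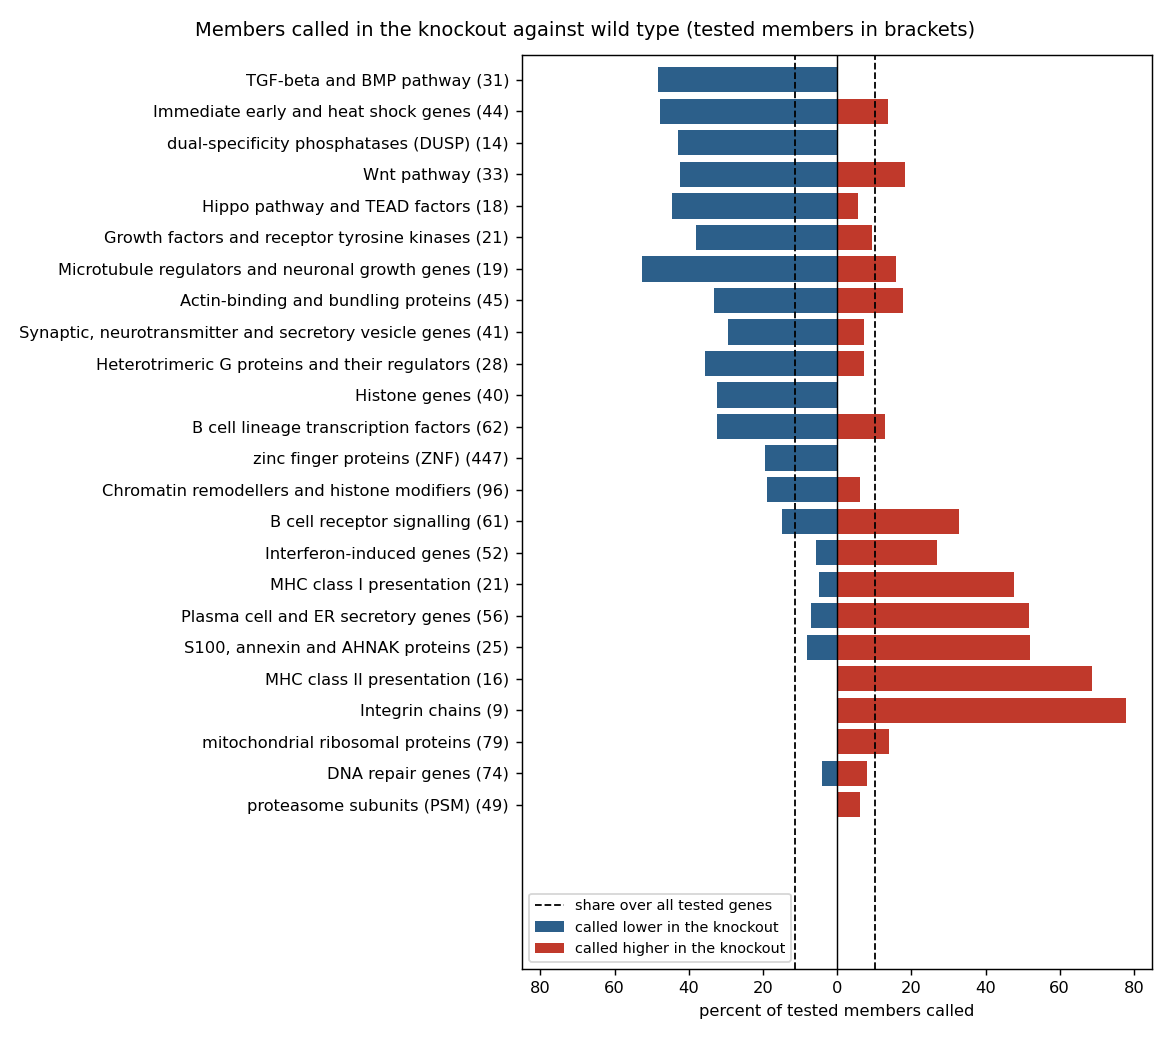
Percent of tested members called lower (blue, left) and higher (red, right) in the knockout for 24 gene lists and families, with the number tested in brackets and dashed lines at the share over all 11542 tested genes. TGF-beta, histone and zinc finger genes extend almost only to the left, MHC class II genes and integrins only to the right. Some lists had 0 calls on a side. At an unadjusted p under 0.05 these had 1 higher (TGF-beta and BMP), 1 higher (dual-specificity phosphatases) and 0 higher (histones). On the other side they had 0 lower (MHC class II, integrins and mitochondrial ribosomal proteins) and 2 lower (proteasome).

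Many antigen presentation genes were higher in the knockout. MHC class II genes, which show peptides to helper T cells, gave 11 higher and 0 lower of 16, with a median difference of 0.24. CD74, the invariant chain that guides class II molecules, had 155220.5, 179633 and 159212.5 in the knockout, against 104161, 124109 and 117055 in wild type (1.43-fold, adjusted p = 2.56e-05). HLA-DRB1 rose 1.51-fold, HLA-DQA1 1.54-fold, the master regulator CIITA 1.31-fold and its partner RFX5 1.26-fold. The 11 were 6 without the block. MHC class I genes gave 10 higher and 1 lower of 21, led by the peptide pump chains TAP1 (1.5-fold) and TAP2 (1.83-fold) and by B2M (difference 0.30). The 10 were 6 without the block or without knockout replicate 2, 5 without wild-type replicate 1 and 3 without knockout replicate 1. HLA genes are so variable between people that reads can be lost or shared between alleles and copies, so their own levels are less certain than those of CD74, CIITA or TAP1.

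Interferon-induced genes gave 14 higher (26.9%) and 3 lower (5.77%) of 52, with 40 of the 52 above 0. OAS2, which senses double-stranded RNA, had 164, 148 and 152 in the knockout, against 31.6, 50.1 and 48.9 in wild type. APOL6 rose 1.86-fold, SAMD9L 1.52-fold and IFIT3 1.6-fold, while ISG20 (1.58-fold, 20 of 21 alternatives) was lower. The 14 were 8 without the block, 9 without knockout replicate 1, 7 without knockout replicate 2 or wild-type replicate 2 and 8 without knockout replicate 3. Of 43 interleukin, receptor and JAK-STAT genes 9 were higher (20.9%) and 4 lower (9.3%), against 10.2% and 11.34% of all tested genes. JAK3 was up 1.82-fold and STAT3 1.40-fold. The 4 lower were 1 without the block and 2 without any single library of either genotype but wild-type replicate 1.

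The APOBEC3 cluster, which encodes antiviral cytidine deaminases, rose as neighbours. APOBEC3C, APOBEC3D, APOBEC3F, APOBEC3G and APOBEC3H stand in that order on chromosome 22, from 39014083 to 39104067 (GRCh38), and each was higher in the knockout. APOBEC3C had 7216, 7315 and 7516 in the knockout, against 2809, 3347 and 3630 in wild type. APOBEC3G rose 2.55-fold, APOBEC3D 3.38-fold, APOBEC3H 3.10-fold and APOBEC3F 2.35-fold. APOBEC3B, which lies next to them at 38982347 to 38992804, had 834, 684 and 735 in the knockout and 705, 873 and 703 in wild type and was not called. The paralogs are alike enough for reads to be divided between them, which leaves the level of each less certain.

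Among factors of B cell identity more fell than rose. Of 62 transcription factors of the B lineage 20 were lower (32.3%) and 8 higher (12.9%), the second near the 10.2% of all tested genes. AFF3 had 112, 142 and 149 in the knockout, against 445, 660 and 597 in wild type. BCL11A, needed for early B cells, fell 4.42-fold, IRF8 2.36-fold, FOXO1 1.70-fold and EBF1 1.30-fold (20 of 21). PAX5, the guardian of B cell identity, had 6667, 9609 and 6146 in the knockout, against 9409, 14293 and 8795 in wild type. Both batch 2 libraries stood above the others of their genotype and the genotypes overlapped, while within each batch the knockout was lower. PAX5 was called in 20 of 21 alternatives and not without the replicate block (limma adjusted p = 0.12). TFEC rose 1.73-fold and NR3C1, the glucocorticoid receptor, 1.6-fold. BCL6 (46.7 ± 15.4 in the knockout, 60.9 ± 23.9 in wild type) and PRDM1 (919 ± 149 and 963 ± 156), factors of the germinal centre and of plasma cells, were not called. The 20 were 12 without the block. The 8 were 4 without the block, 5 without wild-type replicate 1, 3 without wild-type replicate 3 and 4 without knockout replicate 3.

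Plasma cell and endoplasmic reticulum secretory genes, which fold and export antibodies, gave 29 higher and 4 lower of 56, with 48 of 56 above 0 and a median difference of 0.16. TENT5C, which lengthens tails of immunoglobulin transcripts, had 288, 483 and 349 in the knockout, against 82.9, 115 and 61.6 in wild type. The chaperones HSPA5 and HSP90B1 rose 1.22-fold and 1.31-fold, the peptide-folding enzyme FKBP11 1.5-fold and the translocon-associated SSR3 1.28-fold. XBP1, which drives these genes, was 1.16-fold higher, called in 14 of 21. PIM2, a survival kinase, and IRF4, a factor that plasma cells need, were lower, by 1.37-fold and 1.27-fold. The 29 were 18 without the block, without wild-type replicate 1 or without knockout replicate 1, and 19 without knockout replicate 3.

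In B cell receptor signalling 20 of 61 genes were higher and 9 lower, and SRC-family kinases moved in opposite directions. FGR had 498, 511 and 610 in the knockout, against 183, 251 and 292 in wild type. FYN fell to 18.4, 9.28 and 5.97 in the knockout, against 306, 293 and 178 in wild type. LYN, the main such kinase of B cells, was not called (3769 ± 159 in the knockout, 3991 ± 516 in wild type). SYK, the kinase next in the chain, fell 1.32-fold and PLCG1 1.47-fold (20 of 21), while the phosphatases INPP5D and PTPRC (CD45) rose 1.62-fold and 1.51-fold. CD79A, a signal chain of the receptor, was not called. The 20 were 11 without the block, 12 without knockout replicate 3 or wild-type replicate 1 and 13 without knockout replicate 1. The 9 were 5 without the block or without knockout replicate 2. A mixed list of S100, annexin, membrane-scaffold and other genes gave 13 higher and 2 lower of 25. Among its members outside the S100 and annexin families, EMP3 was up 1.51-fold, the stretch-gated channel PIEZO1 1.58-fold and the lamin LMNA 1.95-fold.

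**Figure D4:**
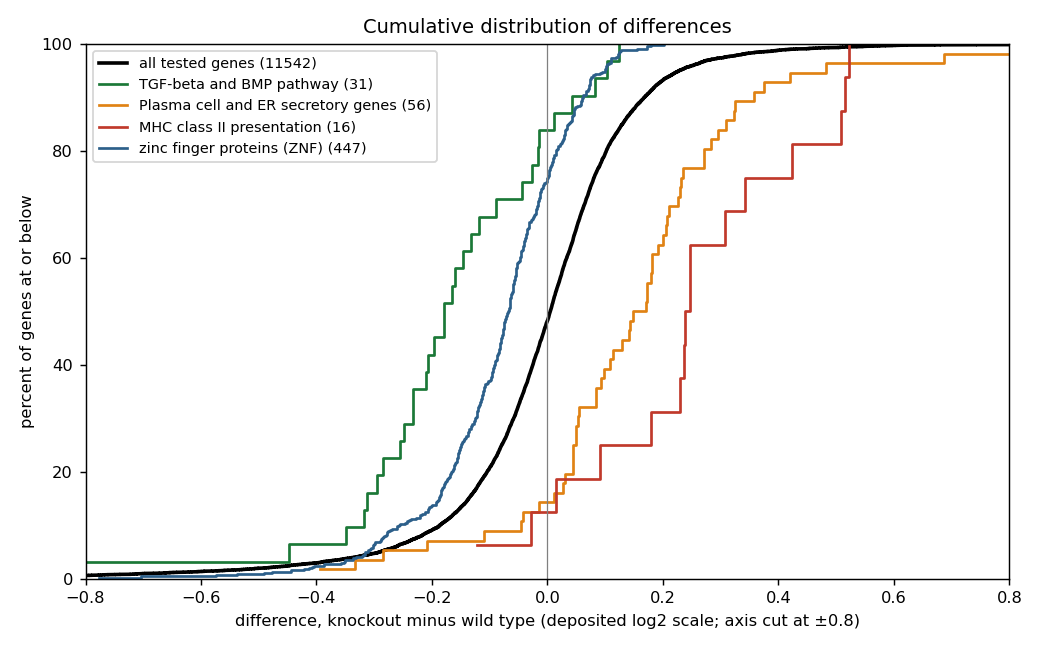
Cumulative share of genes (percent) against the difference, knockout minus wild type, on the deposited log2 scale, for all tested genes (black) and 4 groups, with the number of genes in brackets. The curve of ZNF genes lies to the left of all tested genes over its middle, with a median of -0.07, and those of MHC class II and secretory genes lie to the right, with medians of 0.24 and 0.16.

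The largest family, the ZNF genes, shifted down by a small amount across many members. ZNF proteins bind DNA through zinc fingers, and most of them carry a KRAB domain that recruits silencing factors. Of 447 tested, 87 were lower (19.5%) and 1 was higher, ZNF41 (1.28-fold, 11 of 21 alternatives), while 335 had a difference below 0. The median difference was -0.07 (-0.09, -0.04 and -0.09 within batches 1, 2 and 3), and that of all other tested genes was 0.0077. All tested genes were split into 4 bins of equal size by CPM. The ZNF share called lower was 15.4% in the lowest bin, where other genes had 14.4%, 21.3% in the second, where others had 10.6%, and 27.2% in the next, where others had 9.20%. In the highest bin 15 ZNF genes were tested and 1 was lower (6.67%, where others had 9.96%). On chromosome 19, which holds large clusters of the family, 43 of 229 were lower, and on all other chromosomes 44 of 218. The other genes of chromosome 19 gave 80 lower and 54 higher of 674. ZNF618, with the largest of these falls on the deposited scale (-0.78), had 970, 1139 and 947 in the knockout, against 2223, 2273 and 2091 in wild type, and ZNF219 fell 2.64-fold (-0.70 on that scale). On chromosome 1, from 246945547 to 247331846, the neighbours ZNF695, ZNF670, ZNF669, ZNF124 and ZNF496 were each lower, by 1.32-fold to 1.82-fold, with ZNF670 called in 15 and ZNF124 in 20 of 21 alternatives. The 87 were 48 without the block, 50 without replicate 1 of either genotype, 52 without wild-type replicate 3 and 38 without batch 1. Over all tested genes the 1309 lower were 851 without the block and 703 without batch 1. ZNF genes resemble each other, so reads can be divided between them.

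**Figure D5:**
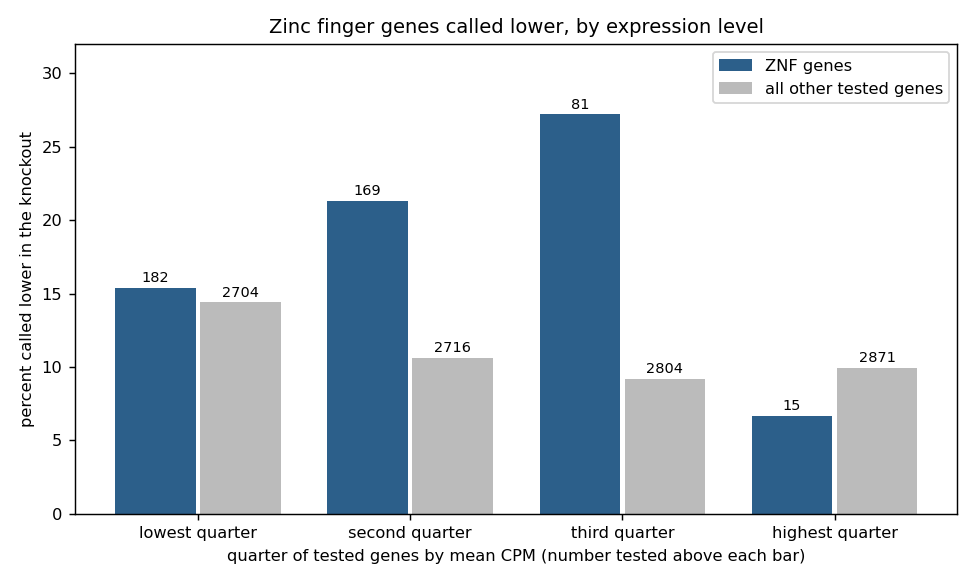
Percent of genes called lower in the knockout among ZNF genes (blue) and all other tested genes (grey), in 4 bins of mean CPM, with the number of genes tested above each bar. The ZNF bar is above the other bar in the second bin (21.3% and 10.6%) and the next (27.2% and 9.20%), and the highest bin holds only 15 ZNF genes.

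Genes for chromatin and RNA control also leaned down. Of 96 chromatin remodellers and histone modifiers 18 were lower (18.8%) and 6 higher (6.25%), with 67 of 96 below 0. DNMT3A, which lays down new DNA methylation, had 737, 898 and 798 in the knockout, against 1682, 1707 and 1826 in wild type. The histone demethylase KDM1A fell 1.30-fold, the deacetylase HDAC2 1.25-fold and the Polycomb protein CBX2 1.30-fold, and its relative CBX6 was 1.29-fold higher. The 18 were 10 without the block. The 6 were 3 without the block, without replicate 1 or 2 of either genotype, and 2 without knockout replicate 3. Histone genes gave 13 lower and 0 higher of 40, with 38 of 40 below 0. H1-2 had 192, 242 and 289 in the knockout, against 729, 1278 and 1442 in wild type, and H2AX and H1-10, whose transcripts are not limited to S phase, fell 1.43-fold and 1.66-fold. Most replication histone transcripts lack a poly(A) tail, so their counts also move with how the RNA was selected, and the labels do not say which library had which kit. The part of RNA selection was not tested.

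The MEX3 family, RNA-binding proteins with KH domains, fell as a whole: MEX3A, MEX3B, MEX3C and MEX3D were lower by 2.11-fold, 4.90-fold, 1.44-fold and 1.96-fold. MEX3A had 2109.5, 2101 and 2108 in the knockout, against 4600, 3984 and 4745 in wild type. The list of RNA-binding families to which they belong gave 11 lower and 3 higher of 25, and NOVA2, a splicing factor of neurons, fell 3.69-fold. The 11 were 7 without the block or without wild-type replicate 1. Of 13 gag-derived genes, which stem from ancient retroelements, and imprinted neighbours, 7 were lower and 2 higher. PEG10 had 31799.9, 29144 and 23802 in the knockout, against 15716, 14943 and 11751 in wild type, and its imprinted neighbour SGCE rose 1.40-fold, while RTL6 fell 2.46-fold. The 7 were 4 without wild-type replicate 1.

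In metabolism a few enzymes moved strongly. The 3 fatty acid desaturases FADS1, FADS2 and FADS3, which lie side by side on chromosome 11, fell 2.15-fold, 2.85-fold and 1.95-fold. FADS2 had 597, 485 and 694 in the knockout, against 1632, 1842 and 1594 in wild type. SCD5, another desaturase, fell 2.12-fold. Of 44 sterol and fatty acid genes 6 were lower (13.6%) and 4 higher (9.09%), near the 11.34% and 10.2% of all tested genes. The 4 were 2 without the block. The sialyltransferase ST6GAL1, which caps glycans of B cell surface proteins, fell 1.86-fold, and MGAT5B, which branches glycans, 5.76-fold. In the nuclear respiratory chain 14 of 69 genes were higher (20.3%) and 3 lower (4.35%), against 10.2% and 11.34% of all tested genes. Its median differences were 0.11, -0.02 and 0.11 within batches 1, 2 and 3, so the list did not rise in batch 2. CYCS, cytochrome c, was at 20379.5 ± 274 in the knockout and 15391 ± 287 in wild type. Without the block the 14 were 8, and without wild-type replicate 1, knockout replicate 1, knockout replicate 2, wild-type replicate 3 or knockout replicate 3 they were 4, 5, 9, 9 and 6. The 13 mitochondrially encoded genes had no call, with median differences of 0.50, 0.29 and -0.23 within batches 1, 2 and 3, and 0 at an unadjusted p under 0.05. Without knockout replicate 3, however, 12 of the 13 were called higher, and without wild-type replicate 3 there were 2.

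Of 84 cytosolic ribosomal proteins 6 were lower (7.14%) and 1 higher (1.19%), against 11.34% and 10.2% of all tested genes. Their median differences were -0.03, -0.18 and 0.03 within the batches. The 6 were 1 without the block and between 0 and 12 with single libraries left out, the 12 without wild-type replicate 3. Mitochondrial ribosomal proteins gave 11 higher (13.9%) and 0 lower of 79. The 11 were 4 without the block, 2 without wild-type replicate 1 and 1 without batch 1. Of 74 DNA repair genes 6 were higher (8.11%) and 3 lower (4.05%). The 6 were 3 without the block, wild-type replicate 1 or knockout replicate 2 and 2 without knockout replicate 3. Of 49 proteasome subunits 3 were higher (6.12%) and 0 lower. By the limma fit none of 8 cytochrome P450 genes, 11 SR splicing factors and 10 E2F and DP factors was called, and at an unadjusted p under 0.05 there were 2, 2 and 1. Of 59 mitotic genes 6 were higher (10.2%, the same as over all tested genes) and 1 lower (1.69%, against 11.34%). A difference above 0 was seen in 41 of the 59. Their median differences were 0.08, 0.14 and -0.04 within batches 1, 2 and 3, so batch 3 went the other way. PLK1 was up 1.29-fold (20 of 21) and NEK2 up 1.41-fold. The 6 were 2 without the block, wild-type replicate 1 or knockout replicate 2, and 17 without wild-type replicate 3. CDK6, which drives cells into S phase, had 1055, 800 and 851 in the knockout, against 522, 344 and 252 in wild type, and CDK2 fell 1.35-fold. CCND1, the cyclin D1 that mantle cell lymphoma overproduces, was not called, at 121398 ± 4772 in the knockout and 128819 ± 7830 in wild type. MYC was 1.12-fold higher and not called (adjusted p = 0.0686).

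No chromosome moved as a whole. The median difference over the autosomes and X lay between -0.04 (chromosome 18, 148 genes tested) and 0.04 (chromosome 4, 369 genes tested). On chromosome 19, 5.98% of 903 tested genes were higher and 13.6% lower, and on chromosome 18, 6.76% of 148 were higher and 15.5% lower. ZNF genes made up 229 of the 903, with 0 higher and 43 lower, and the other 674 had 54 higher and 80 lower (11.9%). Without the filter on low values the shares higher were 4.28% on chromosome 19 and 4.11% on chromosome 18. In that fit 1077 of all 16586 genes were higher, so these shares are not to be set against the 10.2% of the filtered genes. A run of neighbours on chromosome 6 from 32578769 to 32853978 was higher in every tested gene, HLA-DRB1, HLA-DQA1, HLA-DQB1, TAP2, PSMB8 and TAP1. Of these, HLA-DQB1 was called in 15 of 21 alternatives and PSMB8 in 8.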

How the data were processed

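RNA-seq of 9 libraries was used, and 6 of them enter the comparison. Per the submitters' processing notes, the tools were FastQC 0.11.9, Trimmomatic 0.40, kallisto 0.46.1, DESeq2 1.24.0 and R 4.3.2, with build GRCh38.p13. Per the labels' protocols, libraries were made with a TruSeq RNA or a stranded total RNA kit and read paired or single end, and the labels do not say which library had which, so a gene and its antisense partner cannot be told apart. The deposited table holds 16586 genes on a log2 scale. Its columns are named as log CPM, but its values have a common lowest value of 8.5985, and undoing a variance-stabilizing log2 transform gave values in whole steps for 79.0% to 98.2% of low single-transcript genes per library, within 0.05 of a step. Normalized counts, CPM and the estimated depth were taken from that inversion, and intervals on them were not made.

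Tests used limma 3.58.1 with a trended prior in R 4.3.3, on the deposited log2 values of all 9 libraries, with genotype and replicate number as terms. A gene was tested where 3 or more libraries reached a CPM of 1 (11542 genes, with 5044 left out), and p-values were adjusted by Benjamini-Hochberg over all of them. The replicate number is the labelled batch, and deviations of same-numbered libraries from their group means correlated at 0.187 to 0.51. The fit was first tested on simulated data.

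Genes were placed with GENCODE release 29 (16461 matched). Promoters are from RefSeq. The members of 65 gene lists and 69 symbol families were chosen with earlier results of these data known. Named genes are the 20 largest falls and 20 largest rises without overlap, the members with the smallest adjusted p in each list, genes near zero in a genotype, and uncalled members that a sentence needs. A few genes are not reported here. Alternatives were the fit without the block, 6 libraries only, other filters, scales, centrings and priors, and leaving out each library or batch. Tables and figures used Python 3.11.15 with pandas 2.3.3, numpy 2.4.6, scipy 1.17.1 and matplotlib 3.10.9.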

Additional observations from a re-analysis of the deposited data

How the results depend on the processing

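Of 21 alternatives, those that moved the count of called genes (2481, with 1172 higher and 1309 lower) by over 1.5 times were the fit without the replicate block, with 1470 called (619 higher, 851 lower), and fits that left out libraries. The 1470 were all among the 2481. Without batch 1 there were 1183 (480 higher, 703 lower), without batch 3 there were 1650 (722 higher), and without batch 2 there were 706 higher. Leaving out single libraries gave totals of 1568 to 2260 and 672 to 1046 higher, the lowest without wild-type replicate 1 (681 higher), then without knockout replicate 1 (1583, 672 higher) and knockout replicate 2 (1621, 694 higher). These fits hold fewer samples or a wider error term by construction. SOX11 was called lower in each alternative. With limits of 30 and 10 in place of 50 and 5, genes near zero numbered 27 in the knockout and 1 in wild type. Of 1123 genes followed, 462 kept their call in every alternative that tested them and 0 reversed. The 1123 were picked because they were called in the main fit. The alternatives refit the same libraries or part of them, so the 0 is no separate support. Depth limits the low genes, whose steps of single reads are coarse.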
